A study of Mus musculus with 6 samples.

Results

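The genes described here encode the perilipins (Plin1 to Plin5), the CIDE proteins (Cidea, Cideb and Cidec) and seipin (Bscl2), which sit on the surface of the fat cell's lipid droplets or build them. They were found by gene symbol in the platform annotation of the array. Of these 9 genes, 8 had at least 1 probe set assigned to that gene alone, out of 18193 genes measured in all. Plin1 had none and was not analysed here. Plin5 and Bscl2 each had 2 such probe sets and the other 6 genes had 1, giving 10 probe sets. Where a gene had 2, the one with the higher mean over all arrays was used as its main value.

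The tissue was white adipose tissue of 6-month-old C57Bl6 female mice, 3 KSR2-/- and 3 WT, all sampled without any treatment named in the labels. KSR2 holds RAF, MEK and ERK kinases together as a scaffold, and the labels give neither the deleted part of Ksr2 nor the fat depot. Total RNA of each mouse was hybridized to its own Affymetrix array, and the question addressed here is whether the genes of the droplet surface differ between the genotypes. KSR2-/- mice 1 and 2 and WT mice 1 and 2 carry animal numbers above 6000 in the labels (the higher-numbered animals), whereas KSR2-/- mouse 3 and WT mouse 3 carry lower ones (the lower-numbered pair).

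Fat cells store triglyceride in droplets enclosed by a phospholipid monolayer. Perilipins coat that surface and govern how far lipases reach the fat inside. CIDE proteins gather where droplets touch and pass lipid from the smaller droplet to the larger, which makes droplets grow. Seipin acts earlier, at the contact between the endoplasmic reticulum and a forming droplet, and its loss in humans causes a congenital lipodystrophy. In mouse fat, Cidea is best known from brown and beige cells, and Cidec, also called Fsp27, from white fat cells with a single large droplet.

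Promoter sequences of 8 of the 9 genes were available from RefSeq (build GRCm38.p6), 12 windows in all because some genes have several start sites. Cidea had no window and was not searched. The 250 bases before the transcription start are shown for Plin2, whose KSR2-/- and WT values did not overlap, and for Plin3, Plin4 and Cidec, which followed one another from mouse to mouse. Capitals mark matches to the motifs searched on both strands, which were the nuclear receptor core motif AGGTCA, the PPAR response element (AGGTCA repeated with 1 base between), the E-box CACGTG, the CCAAT box and the TATA box TATAAA.
Plin2 (chr4:86670060-86670309, minus strand): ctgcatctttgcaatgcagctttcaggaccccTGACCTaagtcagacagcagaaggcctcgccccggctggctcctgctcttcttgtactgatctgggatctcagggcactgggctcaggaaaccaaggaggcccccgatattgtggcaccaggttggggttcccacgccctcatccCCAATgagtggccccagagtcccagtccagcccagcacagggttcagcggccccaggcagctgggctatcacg
Plin3 (chr17:56290512-56290761, minus strand): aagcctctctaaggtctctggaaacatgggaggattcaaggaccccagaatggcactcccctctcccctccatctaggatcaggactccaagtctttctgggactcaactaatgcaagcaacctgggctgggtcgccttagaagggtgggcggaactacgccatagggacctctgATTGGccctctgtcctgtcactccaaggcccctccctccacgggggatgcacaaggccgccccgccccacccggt
Plin4 (chr17:56109783-56110032, minus strand): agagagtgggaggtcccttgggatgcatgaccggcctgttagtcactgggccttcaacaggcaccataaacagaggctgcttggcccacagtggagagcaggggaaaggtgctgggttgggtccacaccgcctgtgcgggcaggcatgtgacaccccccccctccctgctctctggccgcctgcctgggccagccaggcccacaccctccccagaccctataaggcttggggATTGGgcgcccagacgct
Cidec, first of 2 start sites (chr6:113435761-113436010, minus strand): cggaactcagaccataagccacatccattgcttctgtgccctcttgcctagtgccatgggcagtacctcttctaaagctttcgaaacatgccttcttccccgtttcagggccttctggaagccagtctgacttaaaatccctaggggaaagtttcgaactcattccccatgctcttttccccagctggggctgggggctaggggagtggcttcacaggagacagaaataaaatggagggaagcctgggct

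The Plin2 window held a core motif on the opposite strand, read as TGACCT at positions -218 to -213 from the start, and CCAAT at -73 to -69. Plin3 and Plin4 each held the CCAAT box on the opposite strand, at -75 to -71 and at -18 to -14. The Cidec window held none of the motifs. Over the 12 windows, 3 held a core motif (Plin2, and 1 of the start sites each of Plin5 and Bscl2), against 14.0% of 32851 RefSeq windows of this length. The CCAAT box was in 5 of the 12 (33.8% of all windows), the TATA box in 1 (12.4%), the E-box in 0 (6.02%) and the PPAR response element in 0 (0.0335%). These are matches of letters in a short window and describe no binding.

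Before the genes are described, some features of the arrays bear on them. Median intensities were 22.4 to 24.2 on the deposited linear scale. The 3' minus 5' difference of the Gapdh control probe sets, which grows as RNA degrades, was 4.18 log2 in WT mouse 3 and 0.07 to 1.46 elsewhere. The probe set of Ksr2 was dim everywhere, at 4.34 ± 0.12 log2 in KSR2-/- fat and 4.42 ± 0.35 in WT fat (SD, n = 3 each), and whether it covers the deleted part is unknown, so it does not check the genotype labels. Markers of fat cells were bright on every array, with adiponectin (Adipoq) at 12.70, 12.95 and 13.40 log2 in KSR2-/- mice 1 to 3 and 13.46, 13.58 and 13.52 in WT mice 1 to 3.

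Among the 8 measured genes, Cidea was lower and Plin2 higher in every KSR2-/- mouse than in every WT mouse, while the values of the other 6 overlapped between genotypes. None of the 8 passed the test, limma's moderated test with Benjamini-Hochberg adjustment over all 18193 genes at an adjusted p of 0.05. Only 1 gene passed it in the whole table, or 0.0055%. At an unadjusted p under 0.05 there were 1 member higher (Plin2) and 1 lower (Cidea), where 6.71% of all genes were higher and 5.38% lower by the same rule. Groups that do not overlap were found in 16.3% of all genes, 7.72% higher and 8.56% lower. Of the 8 genes, 4 had a higher and 4 a lower mean in KSR2-/- fat. The median of their differences was 0.07 log2, and that of all genes -0.04.

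**Figure D1:**
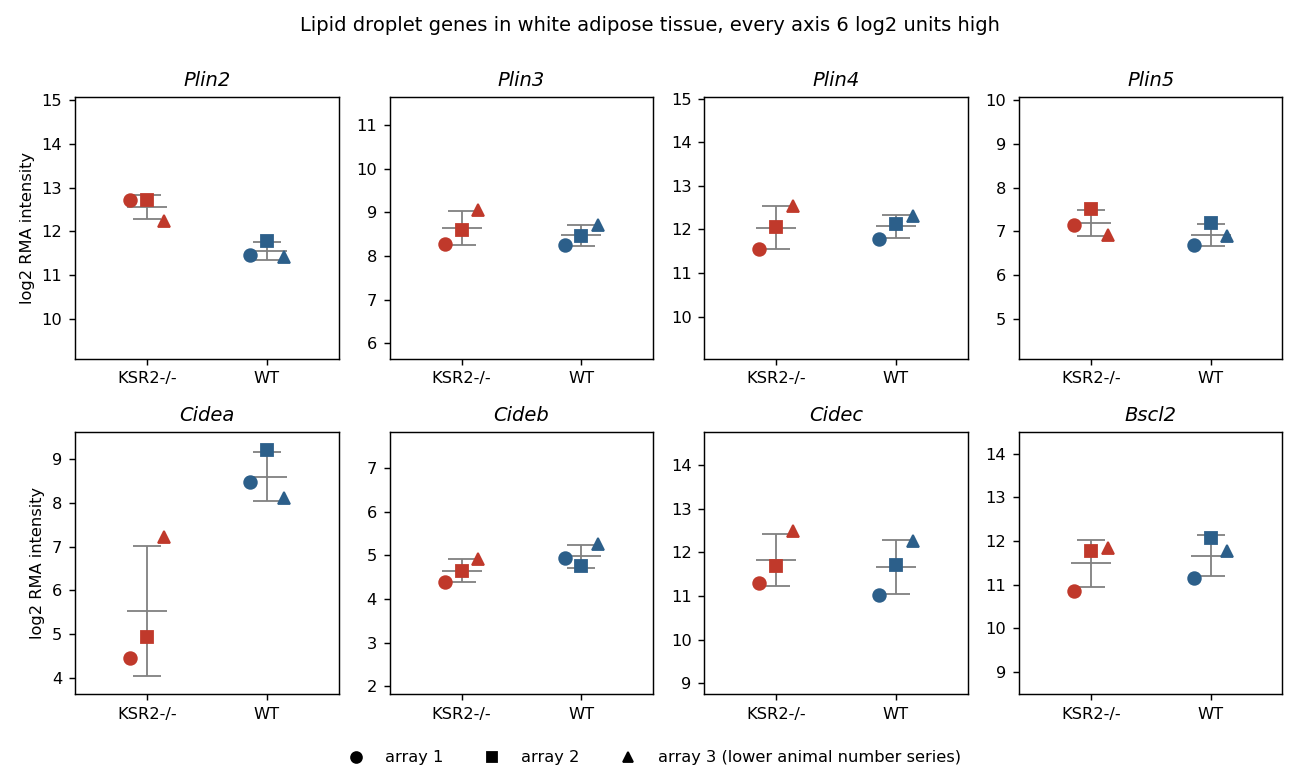
Log2 RMA intensity (vertical axis) of the main probe set of each gene in the 3 KSR2-/- and 3 WT mice; symbols are single arrays, and grey bars give the mean and SD of each genotype (n = 3). The genotypes are apart for Plin2 and Cidea, and KSR2-/- mouse 3 (triangle) lies nearest to the WT mice in both.

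Plin2, also known as adipophilin or ADRP, is the perilipin found on droplets of nearly every cell type, including foamy macrophages and immature fat cells. Its probe set (1448318_at) read 12.71, 12.71 and 12.23 log2 in KSR2-/- mice 1 to 3, against 11.46, 11.78 and 11.41 in WT mice 1 to 3. All KSR2-/- values lay above all WT values, with mouse 3 the lowest of the KSR2-/- mice. The group means were 12.55 ± 0.28 and 11.55 ± 0.20 (SD, n = 3 each), a difference of 1.00 log2 (SE 0.20, 95% interval 0.52 to 1.47), or a 2.00-fold higher intensity. The limma adjusted p was 0.197, and a two-sided exact permutation test gave p = 0.1, the smallest that 3 against 3 arrays allow. By unadjusted p Plin2 stood 147th of the 18193 genes, and by size of difference 884th. The difference was 1.09 within the higher-numbered animals and 0.82 within the lower-numbered pair.

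Cidea encodes a CIDE protein that enlarges droplets and marks thermogenic fat cells in the mouse. Its probe set (1417956_at) read 4.45, 4.93 and 7.23 log2 in KSR2-/- mice 1 to 3, against 8.48, 9.21 and 8.11 in WT mice 1 to 3. KSR2-/- mice 1 and 2 were near the median of all values on the arrays, 4.55, and KSR2-/- mouse 3 lay between them and the WT mice. On the linear scale the intensities were 21.8 to 150 in KSR2-/- fat and 277 to 593 in WT fat. The means were 5.53 ± 1.49 and 8.60 ± 0.56 (SD, n = 3 each), a difference of -3.07 log2 (SE 0.70, 95% interval -4.73 to -1.41). No fold is given, because the low readings of KSR2-/- mice 1 and 2 may not lie above background. The limma adjusted p was 0.229 and the exact permutation p was 0.1. By unadjusted p Cidea stood 257th of the 18193 genes.

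Within the animal number groups the Cidea difference was -4.16 log2 for the higher-numbered animals (2 against 2) and -0.88 for the lower-numbered pair (1 against 1). An interaction term in limma did not pass for Cidea (3.28 log2, SE 0.58, unadjusted p = 0.00183, adjusted p = 0.339) or for any of the other 7 genes (unadjusted p of 0.444 or more). With 1 array per genotype the lower-numbered pair has no spread of its own, so these values are not shown to differ. The WT array of that pair is also the one with the Gapdh difference of 4.18 log2. Without KSR2-/- mouse 3, Cidea differed by -3.92 (limma adjusted p = 0.00542) and Plin2 by 1.16 (adjusted p = 0.0304), and both then passed the test, among 816 genes, or 4.49% of all. Among the higher-numbered animals alone Cidea passed (limma adjusted p = 0.0131) and Plin2 did not (adjusted p = 0.0889), where 2.68% of all genes were called. Over the 15 alternative settings tried, the adjusted p ran from 0.00542 to 0.721 for Cidea and from 0.0304 to 0.718 for Plin2.

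**Figure D2:**
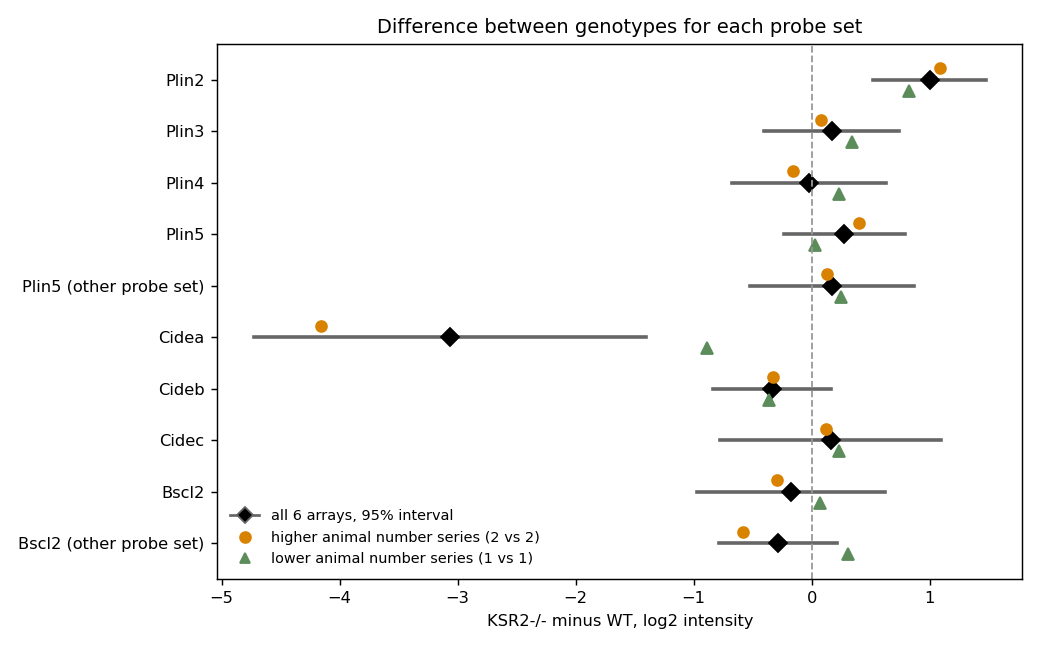
KSR2-/- minus WT difference in log2 intensity (horizontal axis) for every probe set: diamonds and bars give the estimate of the limma fit on all 6 arrays with its 95% interval, circles the difference of means within the higher-numbered animals and triangles that within the lower-numbered pair. Cidea lies at -3.07 and Plin2 at 1.00, and the intervals of the other 8 probe sets include 0.

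Plin3, Plin4 and Plin5 showed no such separation. Plin3, once named TIP47, is made in most tissues and moves from the cytosol onto small new droplets. It read 8.28, 8.59 and 9.06 log2 in KSR2-/- mice 1 to 3, against 8.25, 8.45 and 8.72 in WT mice 1 to 3 (1416424_at). The ranges overlapped, with a difference of 0.17 (SE 0.24, 95% interval -0.40 to 0.74, limma adjusted p = 0.856).

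Plin4, once named S3-12, is a perilipin of white fat cells that also coats nascent droplets. It read 11.55, 12.05 and 12.53 log2 in KSR2-/- mice 1 to 3, against 11.79, 12.12 and 12.30 in WT mice 1 to 3 (1418595_at). KSR2-/- fat held both the lowest and the highest value, and the difference was -0.03 (95% interval -0.68 to 0.63, limma adjusted p = 0.989). Its sign was the other way without KSR2-/- mouse 1 (0.22) and with several other settings.

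Plin5 tethers droplets to mitochondria and is prominent in tissues that burn fat, such as heart and brown fat. Its main probe set (1441915_s_at) read 7.15, 7.51 and 6.92 log2 in KSR2-/- mice 1 to 3, against 6.68, 7.18 and 6.89 in WT mice 1 to 3. The difference was 0.27 (SE 0.22, 95% interval -0.24 to 0.79, limma adjusted p = 0.698). The other probe set (1424937_at) gave 0.17 (95% interval -0.52 to 0.87), with WT mice between 4.71 and 5.77. Plin5 and Plin4 are adjacent protein-coding genes on chromosome 17, and 7 protein-coding genes lie between Plin5 and Plin3.

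Of the other CIDE genes, Cidec is the close relative of Cidea that supports the single large droplet of white fat cells. It read 11.31, 11.68 and 12.48 log2 in KSR2-/- mice 1 to 3, against 11.03, 11.71 and 12.25 in WT mice 1 to 3 (1452260_at). The spread within each genotype exceeded the difference between them, which was 0.16 (SE 0.40, 95% interval -0.78 to 1.09, limma adjusted p = 0.931). The Cidea difference was -3.07 (95% interval -4.73 to -1.41), and whether Cidec and Cidea changed differently was not tested. Without KSR2-/- mouse 3 or without WT mouse 1 the Cidec difference was -0.17 or -0.16.

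Cideb acts on droplets and lipoproteins chiefly in liver and gut. Its probe set (1418976_s_at) was dim, at 4.38, 4.65 and 4.91 log2 in KSR2-/- mice 1 to 3, against 4.94, 4.75 and 5.27 in WT mice 1 to 3. KSR2-/- mouse 3 and WT mouse 2 overlapped, and the difference was -0.34 (SE 0.21, 95% interval -0.84 to 0.16, limma adjusted p = 0.606). The ending _s_at of this probe set and of the main one of Plin5 is used by Affymetrix where probes match more than a single transcript.

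Seipin is encoded by Bscl2. Its main probe set (1437345_a_at) read 10.86, 11.76 and 11.84 log2 in KSR2-/- mice 1 to 3, against 11.16, 12.07 and 11.78 in WT mice 1 to 3. The lowest value of each genotype came from mouse 1, and the difference was -0.18 (SE 0.34, 95% interval -0.98 to 0.62, limma adjusted p = 0.901). The other probe set (1420632_a_at) gave -0.29 (SE 0.21, 95% interval -0.79 to 0.21). Within the higher-numbered animals the probe sets differed by -0.30 and -0.58, and within the lower-numbered pair by 0.07 and 0.31.

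Some of these genes followed each other from mouse to mouse whatever the genotype. In Plin3, Plin4 and Cidec the highest value was that of KSR2-/- mouse 3 and the next that of WT mouse 3, the lower-numbered pair. Pearson correlations over the 6 arrays were 0.93 between Plin3 and Plin4, 0.95 between Plin3 and Cidec and 0.92 between Plin4 and Cidec, the highest of the 28 pairs of measured genes. With both genotypes pooled, Plin2 ran opposite to Cidea (-0.90) and to Cideb (-0.82). The value for Cidea includes the opposite genotype differences of the genes. Among the KSR2-/- mice Plin2 and Cidea ran in opposite orders. Among the WT mice they ran in the same order, lowest in mouse 3 and highest in mouse 2. These correlations rest on 6 arrays normalized together and are given as a description. Other lists also stood apart in the lower-numbered pair: the mean log2 intensity of 15 mammary epithelial markers was 5.47 in KSR2-/- mouse 3 and 6.40 in WT mouse 3, against 4.22 to 4.63 in the other mice, and that of 9 mesothelial markers was 8.74 and 7.85, against 7.03 to 7.41. The summed intensities were 361 to 1830 in KSR2-/- fat and 450 to 2805 in WT fat for the mammary list, and 1341 to 4481 in KSR2-/- fat and 1571 to 2343 in WT fat for the mesothelial one. Of the milk protein genes, Csn2, Wap and Lalba were below the median of all values on every array, whereas Csn3, picked out here after its values were seen, read 6.17 log2 in KSR2-/- mouse 3 and 8.74 in WT mouse 3, against 3.09 to 3.93 in the other mice. The mean of 12 skeletal muscle markers was 6.78 in WT mouse 3, the mouse with the Gapdh difference of 4.18, and 4.45 to 5.16 on the other 5 arrays, and summed intensities of that list were 513 to 1376 in KSR2-/- fat and 420 to 2387 in WT fat. The part of such cells in the Plin3, Plin4 and Cidec values was not tested.

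Of the 9096 other genes with a mean at or above the median of all gene means, those most like Plin2 over the 6 arrays were Lrg1 (r = 0.99), Cpt1a (0.99) and Socs2 (0.99). Lrg1, a secreted glycoprotein gene, is also the next protein-coding gene after Plin5 on chromosome 17 and averaged 11.56 log2 in KSR2-/- fat and 10.12 in WT fat. Most like Cidea were Hsd17b10, Shld2 and Rfxank (all r = 1.00 when rounded), with differences of -1.06, -0.51 and -0.76 log2. Plin4 was matched by Guk1 (1.00), Igfbp6 (1.00) and Rspo1 (1.00), Plin3 by Tesc, Sptbn1 and Gucy1a1 (0.99 each), and Cidec by Wwc2, Actr1a and Gbf1 (0.99 each). Rspo1 also stands on the list of mesothelial markers, which was high in the lower-numbered pair. For Bscl2 the likest were Ttc37 (1.00), Ercc5 (1.00) and Rpap3 (0.99), for Plin5 Grb2 (0.99), Fnbp1 and Fam219a (0.98 each), and for Cideb Crebrf (0.98), Vmac and Gm15972 (0.97 each). With 6 arrays and so many genes, values this close to 1 occur for every member.

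Other proteins of the droplet surface and of droplet formation gave no common direction. Of 47 listed genes 46 were measured, 23 of them higher and 23 lower in KSR2-/- fat, with a median difference of -0.002 log2. None passed limma over all genes, and 1 stood higher and 2 stood lower at an unadjusted limma p below 0.05, where 6.71% and 5.38% of all genes did. The higher one was Hilpda, a small inhibitor of the triglyceride lipase ATGL induced by hypoxia and fatty acids. It read 6.99, 7.73 and 7.06 log2 in KSR2-/- mice 1 to 3, against 6.11, 6.72 and 6.61 in WT mice 1 to 3. The difference was 0.78 (SE 0.26, limma adjusted p = 0.317). The lower ones were Vps13a, a lipid transfer protein at organelle contacts, and Tmem159, whose product LDAF1 is the partner of seipin in droplet formation. Tmem159 read 7.09, 7.65 and 7.86 log2 in KSR2-/- mice 1 to 3, against 7.93, 8.51 and 8.64 in WT mice 1 to 3, so the groups did not overlap (difference -0.83, SE 0.28, limma adjusted p = 0.314). Vps13a differed by -0.86 (SE 0.22, limma adjusted p = 0.248).

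The lipases and their cofactors on the droplet were likewise not called. Pnpla2, which encodes ATGL, measured 10.86 ± 0.76 log2 in KSR2-/- fat and 11.65 ± 0.07 in WT fat (difference -0.79, SE 0.36, limma adjusted p = 0.444). KSR2-/- mice 1 and 2 read 10.45 and 10.38, whereas KSR2-/- mouse 3, at 11.73, was above all WT mice. Differences were -0.21 (95% interval -1.35 to 0.94) for Lipe, hormone-sensitive lipase, -0.08 (-0.97 to 0.80) for Abhd5, the ATGL activator that perilipin holds at rest, and -0.42 (-1.45 to 0.61) for the ATGL inhibitor gene G0s2.

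Most of the listed transcriptional regulators of droplet genes had lower means in KSR2-/- fat. Of the 22 listed, all measured, 17 were lower, against 10113 of all 18193 genes, and the median difference was -0.40 log2, against -0.04 over all genes. By limma 0 passed over all genes, while 1 had a higher and 5 a lower mean at an unadjusted limma p below 0.05 (6.71% and 5.38% of all genes). Ppargc1a, which encodes the coactivator PGC-1α, read 3.63, 3.40 and 3.92 log2 in KSR2-/- mice 1 to 3, against 5.57, 5.61 and 4.68 in WT mice 1 to 3 (difference -1.64, SE 0.29, limma adjusted p = 0.193). All KSR2-/- values of Ppargc1a lay below the median of all values, 4.55. Pparg, the master regulator of fat cell genes, differed by -0.80 (95% interval -1.74 to 0.13), Cebpa by -0.34 (-1.05 to 0.36) and Srebf1 by -0.86 (-1.63 to -0.09). Of the 5 regulators with a higher mean, the 1 at an unadjusted p below 0.05 was Hif1a, the hypoxia-inducible factor, at 0.70 (SE 0.24, limma adjusted p = 0.314). The part of these regulators in the Cidea and Plin2 values was not tested.

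**Figure D3:**
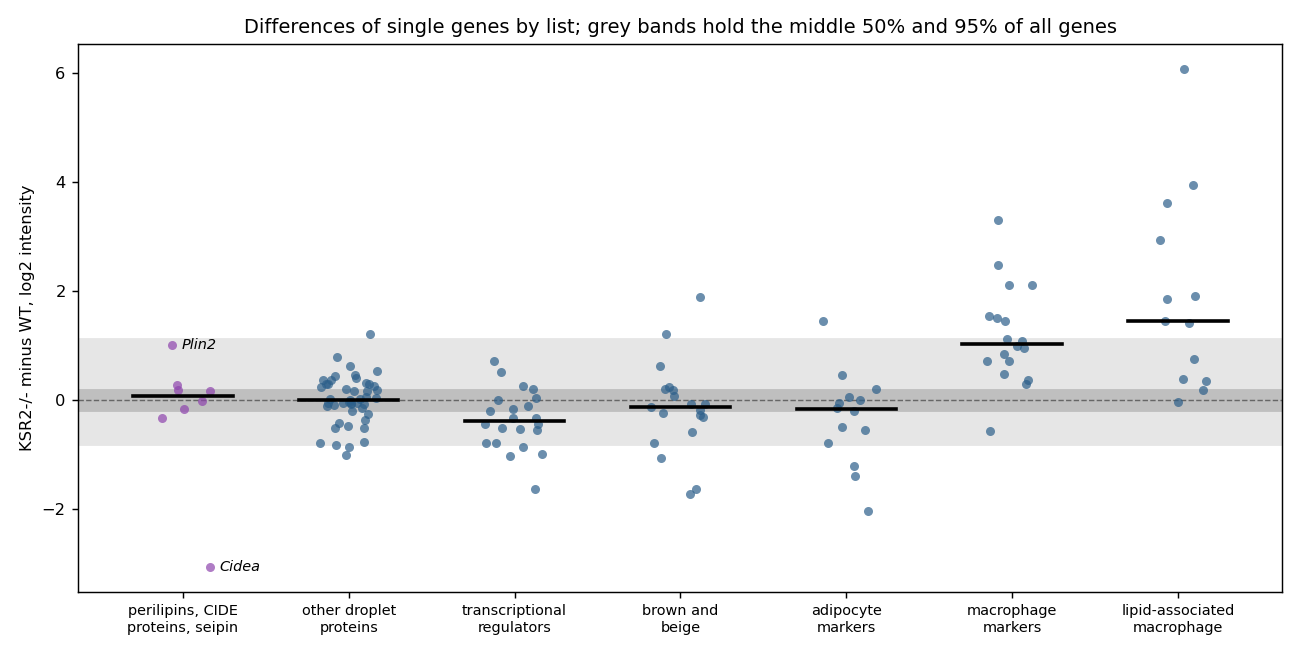
KSR2-/- minus WT differences in log2 intensity (vertical axis) of the single genes of each list; black bars are list medians, and the grey bands hold the middle 50% and 95% of all 18193 genes. Cidea lies far below the wider band and Plin2 inside it, while macrophage markers, with a median of 1.03, lie mostly above the middle band.

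Because Cidea is a gene of brown and beige fat cells, the other genes of those cells were set beside it. Ppargc1a, Ebf2 and Prdm16 also stand on the list of regulators, so the counts of those lists are not independent. Of 20 listed, 19 were measured, 7 higher and 12 lower, with a median of -0.14 log2. None passed limma, and 1 stood higher and 4 stood lower at an unadjusted limma p below 0.05, where 6.71% and 5.38% of all genes did. Cox8b, a cytochrome c oxidase subunit of oxidative fat and muscle, read 7.95, 8.67 and 8.97 log2 in KSR2-/- mice 1 to 3, against 9.51, 10.97 and 10.31 in WT mice 1 to 3 (difference -1.73, SE 0.41, limma adjusted p = 0.240). Ucp3, a mitochondrial carrier, differed by -1.08 (SE 0.19, limma adjusted p = 0.193). Otop1, a proton channel gene, was 1.89 higher (SE 0.29, limma adjusted p = 0.174).

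The defining thermogenic gene, Ucp1, did not follow Cidea. It read 4.20, 4.24 and 6.25 log2 in KSR2-/- mice 1 to 3, against 3.79, 3.84 and 7.27 in WT mice 1 to 3. It was high in the lower-numbered pair and low in the other 4 mice, and WT mice 1 and 2, with Cidea at 8.48 and 9.21, had Ucp1 below the median of all values. Of the 19 genes, 4 (Elovl3, Zic1, Eva1a and Slc27a2) were below that median on every array. The summed linear intensity of the 19 was 1026 to 1658 in KSR2-/- fat and 1594 to 3152 in WT fat, so the groups overlapped.

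Plin2 is also abundant in lipid-laden macrophages, and most macrophage markers had higher means in KSR2-/- fat. Of 18 macrophage markers, all measured, 17 were higher in KSR2-/- fat, against 8080 of all 18193 genes. At an unadjusted limma p under 0.05, 11 of the markers were higher, against 6.71% of all genes, and 0 passed limma over all genes. Groups did not overlap for 10 of the 18, all higher, against 7.72% of all genes. The summed intensity of the 18 was 17151 to 38305 in KSR2-/- fat and 13562 to 14342 in WT fat. Of the 13 measured lipid-associated macrophage markers 12 were higher, 9 at an unadjusted p under 0.05, with sums of 43865 to 68511 in KSR2-/- fat and 32630 to 37350 in WT fat. Among the macrophage markers Cx3cr1 was below the median of all values on every array, and Cd163 was the 1 with a lower mean in KSR2-/- fat (difference -0.58, SE 0.32). Adgre1 read 10.57, 10.71 and 8.75 log2 in KSR2-/- mice 1 to 3, against 8.16, 8.61 and 8.79 in WT mice 1 to 3. Its value in KSR2-/- mouse 3 thus lay inside the WT range. Trem2, the lipid receptor that defines lipid-associated macrophages, read 9.23, 9.02 and 6.43 log2 in KSR2-/- mice 1 to 3, against 5.34, 5.28 and 5.25 in WT mice 1 to 3. The macrophage list's mean log2 intensity lay 1.50, 1.64 and 0.42 above the WT mean in KSR2-/- mice 1 to 3, where Plin2 lay 1.16, 1.16 and 0.68 above it and Cidea lay at -4.16, -3.67 and -1.37. The part of these cells in the Plin2 and Cidea values was not tested.

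Of 14 measured markers of the fat cell itself, 4 were higher and 10 lower in KSR2-/- fat, with a median of -0.18 log2 and summed intensities of 48896 to 71246 in KSR2-/- fat and 63336 to 69666 in WT fat. None passed limma over all genes, and 1 stood higher and 5 stood lower at an unadjusted limma p below 0.05, where 6.71% and 5.38% of all genes did. The list's mean log2 intensity was 10.38, 10.72 and 11.41 in KSR2-/- mice 1 to 3, against 11.01, 11.30 and 11.23 in WT mice 1 to 3, so it was below all WT mice in the KSR2-/- mice with the lowest Cidea values, and its part in the Cidea values was not tested. Adipoq differed by -0.51 (SE 0.21), Retn (resistin) by -1.23 (SE 0.42), the glucose transporter gene Slc2a4 by -1.40 (SE 0.55) and Fabp4, the fatty acid binding protein of fat cells, by -0.06 (95% interval -0.42 to 0.30). Pck1, a glyceroneogenic enzyme, averaged 8.76 log2 in KSR2-/- fat and 10.81 in WT fat (difference -2.05, SE 0.63), with a spread in KSR2-/- fat (SD 1.41) close to that of Cidea (SD 1.49). Leptin (Lep) was 1.45 higher (SE 0.57). Groups did not overlap for 2 markers that were higher (Lep and Cd36) and 3 that were lower (Adipoq, Pck1 and Retn), against 7.72% and 8.56% of all genes. In whole tissue, fewer cells of a type and less RNA per cell cannot be told apart.

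**Figure D4:**
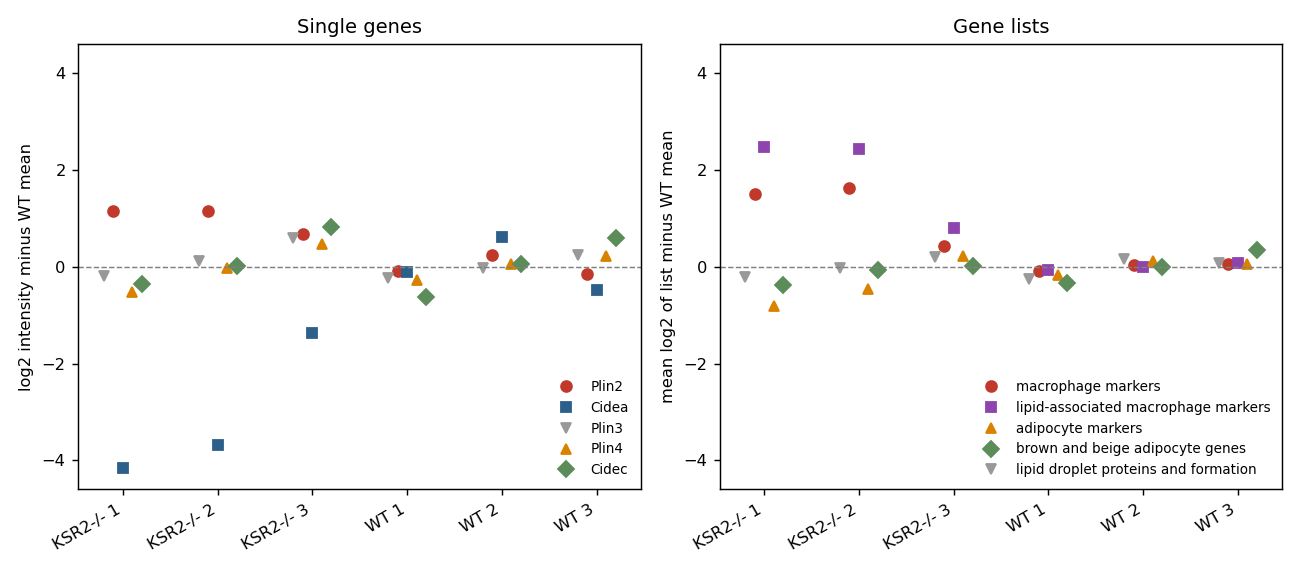
Deviation from the WT mean for each of the 6 arrays, in log2 intensity of single genes (left) and in mean log2 intensity of gene lists (right). In KSR2-/- mice 1 and 2 Plin2 and the macrophage lists are high and Cidea is low, KSR2-/- mouse 3 is nearer to the WT mean in all of these, and Plin3, Plin4 and Cidec are highest in mouse 3 of each genotype.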

How the data were processed

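The values are RMA intensities as deposited by the authors, on a linear scale judging by their range, with RMA named, without a version, per the submitters' processing notes. RMA corrects background, normalizes arrays to a common distribution and summarises probes over all arrays together, so arrays are not independent at that step. Values were 2.96 or higher, and log2 was taken with no pseudocount. Of 45101 probe sets, 34945 had exactly 1 gene symbol, 932 several and 9160 none, and 64 were controls. Symbols were updated by gene identifier to GRCm38.p6 RefSeq names (34754 matched). Each gene was represented by its probe set with the highest mean. The genotypes were tested against each other in R 4.3.3 with the package limma 3.58.1 (lmFit, eBayes, two-sided, prior degrees of freedom 3.06), with no filter on dim genes. The number of arrays limits the precision, the median SE over genes being 0.22 log2. The procedure was also run on simulated data, in which noise was independent between genes and between arrays. Shared differences between arrays, such as those of the lower-numbered pair, were not simulated.

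Replicates were numbered in accession order. Each array is 1 mouse, as the design text states. The members and gene lists were chosen with earlier results of these data known. Some genes stand on several lists, such as Lipe and Pnpla2 (droplet proteins and fat cell markers) and Krt19 (mammary and mesothelial markers). Genes named besides the members are, for each list, up to 3 in each direction with the smallest unadjusted p, a short fixed set (such as Ucp1 and Pparg) and the 3 genes most correlated with each member, and not all of them are described. Marker lists of endothelial, stromal, lymphocyte and skeletal muscle cells were also measured. Of the 9 endothelial markers 7 were higher, of the 10 stromal ones 5, of the 9 lymphocyte ones 8 and of the 12 muscle ones 2, and 0 of each passed limma.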

Additional observations from a re-analysis of the deposited data

How the results depend on the processing

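The differences of the 8 genes were recomputed under 15 alternatives (14 for Cideb, which lay below the filter on dim genes), 119 values in all, of which 106 kept their direction and side of the threshold, 10 turned in sign and 3 came past the threshold. The 3 were Cidea without KSR2-/- mouse 3 and among the higher-numbered animals alone, and Plin2 without KSR2-/- mouse 3. None of the turned values was past the threshold. They were Plin4 with quantile normalization repeated (0.0075 log2) and with the Gapdh difference as a covariate (0.055), and values with 1 mouse left out, which ranged from -0.27 to 0.22 for Plin4, -0.042 to 0.35 for Plin3, -0.17 to 0.45 for Cidec and -0.43 to 0.14 for Bscl2. For Cidea and Plin2 that range was -3.92 to -2.52 and 0.92 to 1.16. The count of the 8 genes past the threshold was 0 to 2 with 1 mouse left out and 1 among the higher-numbered animals alone. The count of those whose groups did not overlap was 2 to 4 with 1 mouse left out, 4 being reached without WT mouse 2, when Plin5 and Cideb joined. Leaving out a mouse can only remove overlap, for any gene. The share over all genes was not counted with a mouse left out, so these counts say nothing particular to the members. Over all genes, 1 passed limma. That count was 0 with every probe set fitted, 0 with the animal number groups as a block, 6 with the Gapdh covariate, 10 with eBayes with trend, 12 with dim genes filtered out, 12 with quantile normalization repeated over genes, 16 with arrays centred on the median gene, 487 among the higher-numbered animals alone and 0 to 816 with 1 mouse left out, 816 being without KSR2-/- mouse 3. The cause was not tested. The labels give the mice no shared replicate numbers, so none were paired by number, and the block for animal number groups was the only matched fit. Dim probe sets, such as those of Cideb and Ksr2 and of Cidea in KSR2-/- mice 1 and 2, limit what can be read of low levels.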
